A study of Homo sapiens with 6 samples.

Results

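Nuclear genes that encode subunits of the mitochondrial respiratory chain and of ATP synthase were followed in human HEK293 cells after disruption of ZNF507 or ZNF146, and none of them passed the threshold of the test between groups without a replicate block. With a replicate block, NDUFB2 and UQCRHL passed in sgZNF507 against sgZNF146 in edgeR, where 196 of all 22010 genes passed. DESeq2 with the block called 0 of these nuclear genes, and only 75 of 36846 genes in that comparison. The genes were chosen by symbol as protein-coding genes that start with NDUFA, NDUFB, NDUFC, NDUFS or NDUFV and a digit (complex I), SDHA to SDHD (complex II), UQCR or CYC1 (complex III), COX4 to COX8 with a letter A to C (complex IV) or ATP5 (complex V, ATP synthase). The rule found 88 of the 57773 genes in the count table, with 39 for complex I, 4 for complex II, 10 for complex III, 15 for complex IV and 20 for complex V. Of these, 82 had enough reads to be tested. Another 165 processed pseudogenes and 6 lncRNAs carried a matching symbol and were left out. The rule does not reach COX4I1, COX4I2, NDUFAB1 and CYCS, which also belong to the chain, and it places NDUFA4 under complex I, although this protein is known as a complex IV subunit.

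HEK293 is an established human embryonic kidney cell line. All cells were transfected with a Cas9 plasmid that also gives puromycin resistance, selected for 36 h with puromycin and grown out for 2 weeks as mixed, uncloned populations. The plasmids carried no guide in the empty vector control (EV), 4 guides against ZNF146 in sgZNF146 or 4 guides against ZNF507 in sgZNF507. ZNF146 and ZNF507 are C2H2 zinc finger proteins encoded on chromosome 19, and the comparison asks which transcripts differ once either is disrupted. Total RNA depleted of ribosomal RNA was sequenced for 2 replicates a group, described in the labels as biological duplicates, and p-values therefore measure only the spread between these few libraries. Library totals ran from 22724439 to 28524025 counts, of which the 88 genes took 0.702 to 0.734%, or 166783 to 202746 counts a library.

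ZNF507 transcript was at 72.0 and 75.5 CPM (counts relative to the adjusted total of the library) in EV and at 47.2 and 48.7 CPM in sgZNF507, a log2 fold change of -0.62 ± 0.07 (SE, edgeR adjusted p = 0.00195). ZNF146 transcript was at 115 and 105 CPM in EV and at 99.2 and 103 CPM in sgZNF146, which did not pass the test (log2 fold change of -0.13 ± 0.08, edgeR adjusted p = 1). In sgZNF507, whose guides target the other gene, ZNF146 was at 88.4 and 101 CPM, a log2 fold change against EV of -0.21 ± 0.08 (edgeR unadjusted p = 0.0162, adjusted p = 1). Cas9 cuts change the sequence of a transcript and need not change its level, so the ZNF146 values do not check the labels. Of the 3 HEK293 markers, which summed to 1090 to 1230 CPM, NEFM ranged from 66.3 to 77.5 CPM, PAX2 from 5.25 to 8.03 CPM and VIM from 1010 to 1150 CPM over the 6 libraries. The 7 mature kidney markers summed to 48.1 to 73.6 CPM, with UMOD at 0 counts throughout and LRP2 at 43.4 to 69.1 CPM. Of the 5 markers of other cells, which summed to 64.6 to 81.9 CPM, the collagen genes COL1A1 and COL3A1 were at 58.9 to 73 CPM and 5.63 to 8.93 CPM, and PTPRC, CD3E and CDH5 were at or under 0.207 CPM. Some listed markers are not reported here, and the part of the markers in the results was not tested.

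Complex I oxidises NADH and complex II oxidises succinate, and both pass electrons through ubiquinone to complex III, cytochrome c and complex IV, which reduces oxygen. Complexes I, III and IV pump protons, and ATP synthase uses the resulting gradient to make ATP. Complex II is built from nuclear genes only, whereas the other complexes each contain subunits translated from mitochondrial mRNAs, so that their assembly draws on both genomes. Nuclear respiratory factor 1 (NRF1), the ETS factor GABP and YY1 are known as regulators of many of the nuclear genes.

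The chain genes were among the abundant mRNAs of these cells. Levels between genes were compared as CPM per kb of transcript, using the median length of each gene's basic protein-coding transcripts. The median of the 82 tested genes in EV was 95.2 CPM per kb, against 8.83 CPM per kb for all 14744 protein-coding genes tested. Of the 82, 75 lay above that median and 58 in the top 10% of protein-coding genes, over 53.9 CPM per kb, whereas 3 lay under the first quartile of 2.16 CPM per kb.

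**Figure D1:**
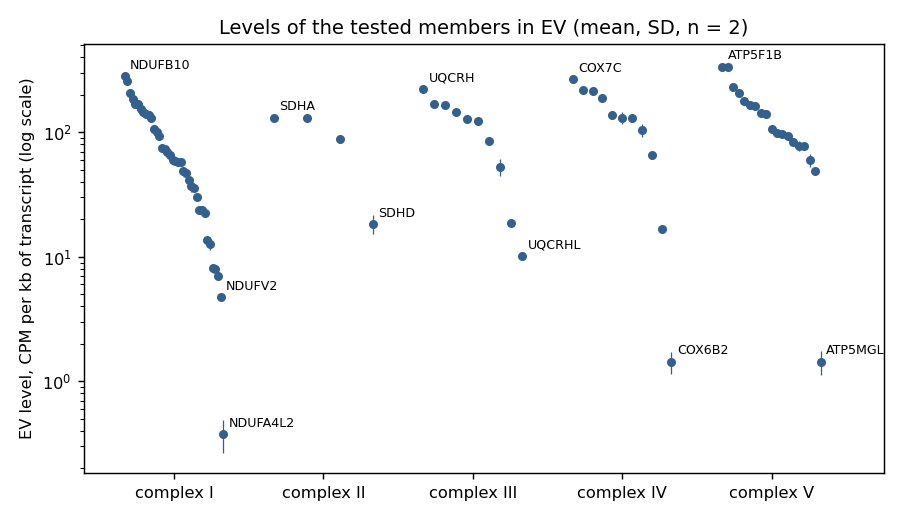
Each point is 1 tested gene, ordered by level within its complex, with the EV mean on a log axis in CPM per kb of transcript and a bar for the SD (n = 2). Levels ran from 336 CPM per kb for ATP5F1B down to 0.379 CPM per kb for NDUFA4L2, and SDHD and UQCRHL lie well below the other genes of complexes II and III named on the plot.

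Levels within a complex were far from equal although the proteins are largely present in fixed ratios. In complex I, the highest level was that of the accessory subunit NDUFB10 at 284 ± 10.2 CPM per kb (SD, n = 2 in EV) and the lowest that of NDUFA4L2, a hypoxia-responsive relative of NDUFA4, at 0.379 ± 0.115 CPM per kb. The 7 core subunits, which carry the flavin and the iron-sulfur clusters, had a median of 100 CPM per kb and ranged from NDUFV2 at 4.72 ± 0.195 CPM per kb to NDUFS8 at 257 ± 5.23 CPM per kb. The 31 other tested genes of the complex had a median of 59.0 CPM per kb. NDUFV2, an iron-sulfur subunit next to the site of NADH oxidation, had only 105 to 145 counts a library, and 10% of the 50-base windows of its transcripts also occurred in NDUFV2P1, a pseudogene of it. Its exons also overlap those of a lncRNA on the same strand over 771 bases (28.4% of its exon bases), and that lncRNA had 0 counts in every library. How reads in this overlap were counted is not given in the sources used here, so the low level of NDUFV2 is uncertain.

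In complex II, the flavoprotein SDHA was at 131 ± 5.38 CPM per kb, the membrane anchor SDHC at 129 ± 4.20, the iron-sulfur protein SDHB at 88.0 ± 0.316 and the other anchor SDHD at 18.4 ± 3.20 CPM per kb. Per kb, SDHA and SDHC were close, and SDHD was the lowest of the complex. This order rests on the lengths used, 2148 bases for SDHA and 460 for SDHC. Without length, the EV means were 281 CPM for SDHA, 89.4 for SDHB, 59.1 for SDHC and 16.3 for SDHD. SDHD exons overlap those of a protein-coding gene on the same strand over 319 bases (11.4% of its exon bases). That gene had at most 5 counts in a library. In SDHD, 10.3% of windows also occurred in other genes. How such reads were counted is not given in the sources used here, so the SDHD level is uncertain. Complex III ran from the hinge protein UQCRH at 224 ± 9.34 CPM per kb to its single-exon copy UQCRHL at 10.2 ± 0.119. The catalytic subunits of complex III lay between, with cytochrome c1 (CYC1) at 170 ± 1.23 and the Rieske iron-sulfur protein UQCRFS1 at 18.7 ± 0.581 CPM per kb, and the core proteins UQCRC1 at 128 ± 5.96 and UQCRC2 at 85.7 ± 5.36. Complex IV ran from COX7C at 266 ± 5.49 to COX6B2, the testis form of subunit 6B, at 1.44 ± 0.289 CPM per kb, with COX5A at 217 ± 3.24 and COX5B at 137 ± 1.52. In ATP synthase, the catalytic subunit ATP5F1B had the highest level at 336 ± 7.59 CPM per kb, its partner ATP5F1A was at 143 ± 8.39 and the central stalk subunit ATP5F1C at 107 ± 3.09. The lowest was ATP5MGL, a relative of ATP5MG, at 1.44 ± 0.309 CPM per kb.

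Where a subunit has tissue isoforms, the ubiquitous form supplied nearly every read. COX6A2 and COX7A1, the heart and skeletal muscle forms, had at most 1 count in any library, beside 1681 to 2276 counts for COX6A1 and 1227 to 1483 counts for COX7A2. COX7B2 had at most 1 count and COX8C at most 4, beside 1887 to 2289 counts for COX7B and 2569 to 3134 for COX8A. These 4 genes, with the read-through genes NDUFC2-KCTD14 and ATP5MF-PTCD1, made up the 6 that were not tested, and at this depth a difference in them was not detectable. COX6B2 took 2.40% of the reads of COX6B1 and COX6B2 in EV, 2.41% in sgZNF146 and 2.38% in sgZNF507. The membrane c subunit of ATP synthase is encoded by 3 genes whose mature proteins are the same, and their shares of reads in EV were 20.1% for ATP5MC1, 45.7% for ATP5MC2 and 34.2% for ATP5MC3. The shares were 19.2%, 46.2% and 34.6% in sgZNF146, and 20.2%, 44.8% and 35.0% in sgZNF507, so that the order of the 3 genes was the same in each group.

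Against EV, sgZNF507 cells had 0 of the 82 genes past an adjusted p of 0.05, in edgeR and also in DESeq2, where 40 of all 22010 genes tested passed in edgeR (0.182%). At an unadjusted p under 0.05, 2 of the 82 (2.44%) were listed, beside 3.39% of all genes, so that the share was not above the background. The log2 fold changes ran from -0.24 to 0.21, with 34 genes higher and 48 lower, and their median was -0.021 where that of all genes tested was -0.003. For 78 of the 82 genes, the 95% interval of the fold change lay within 1.5-fold in either direction. The interval's half-width had a median of 0.16 on the log2 scale, against 0.22 for all protein-coding genes tested. In 34 genes (41.5%), both libraries of one group lay above both of the other, 12 of them higher in sgZNF507 and 22 lower, beside 29.3% of all genes tested.

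Against the same 2 EV libraries, sgZNF146 cells also had 0 of the 82 genes past the adjusted threshold in edgeR and in DESeq2, and 0% of all genes tested passed in edgeR. At an unadjusted p under 0.05, 1 gene (1.22%) was listed, beside 2.43% of all genes tested. The median log2 fold change was -0.015 beside -0.001 for all genes, with 32 genes higher and 50 lower, and 79 of the 82 intervals lay within 1.5-fold. Groups did not overlap in 21 genes (25.6%), beside 28.6% of all genes tested. Between the disrupted populations, sgZNF507 against sgZNF146, 0 of the 82 passed in either tool, beside 0.173% of all genes in edgeR, and 2 (2.44%) had an unadjusted p under 0.05, beside 4.03%. The median was -0.007 beside -0.004 for all genes, and the groups did not overlap in 26 genes (31.7%), beside 32.1% of all genes tested.

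When edgeR was given the replicate number as a blocking term, 0 of the 82 passed in either comparison with EV, beside 0.55% of all genes in sgZNF507 and 0.15% in sgZNF146, and 2 (2.44%) passed in sgZNF507 against sgZNF146, beside 0.891%. At an unadjusted p under 0.05 the block listed 12 genes (14.6%) in sgZNF507 against EV, beside 7.66% of all genes, 5 (6.1%) in sgZNF146, beside 5.44%, and 5 (6.1%) between the disrupted groups, beside 8.68%. DESeq2 with the block called 0 of the 88 genes in each comparison. Of all 36846 genes it called 63 in sgZNF507 against EV, 0 in sgZNF146 against EV and 75 between the disrupted groups.

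**Figure D2:**
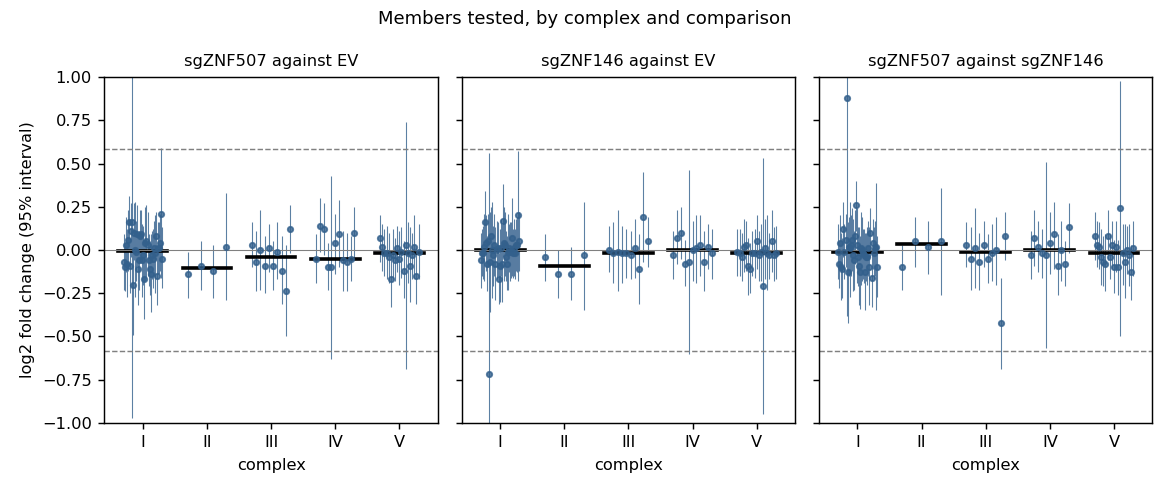
Points are log2 fold changes of the 82 tested genes by complex in each comparison, with thin bars for 95% intervals, thick bars for the median of the complex and dashed lines at 1.5-fold. Nearly all intervals lie inside the dashed lines, the axis ends at 1 in either direction, and the widest intervals, such as that of NDUFA4L2, run beyond it.

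By complex, the medians in sgZNF507 against EV were -0.001 for complex I, -0.108 for complex II, -0.036 for complex III, -0.053 for complex IV and -0.018 for complex V. The corresponding medians in sgZNF146 against EV were -0.001, -0.091, -0.011, -0.005 and -0.017. With NDUFA4 counted under complex IV, its median in sgZNF507 was -0.008. Both comparisons used the same EV libraries, so that a deviation of these libraries enters both.

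The summed transcripts of complexes I, III, IV and V differed little across the 3 conditions. Their group sums lay between 98.8 and 101% of the EV mean, and the libraries of each disrupted group overlapped those of EV in every one of these complexes. Over all 88 genes the sums were 7243 and 7158 CPM in EV, 7244 and 7031 CPM in sgZNF146, and 7238 and 6999 CPM in sgZNF507. Whether a summed level reflects the RNA of each cell or the share of cells with it cannot be told apart in bulk RNA.

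**Figure D3:**
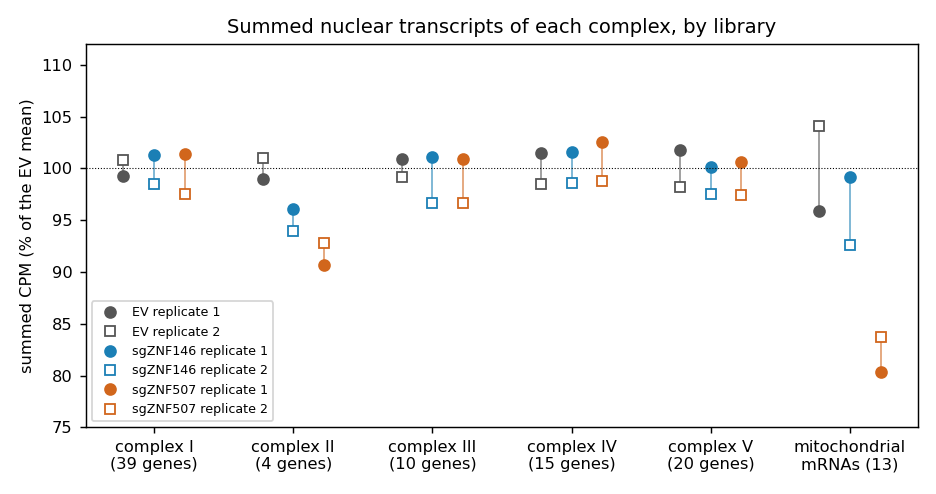
Summed CPM of each complex in every library is shown as a percentage of the EV mean, with replicate 1 as a filled circle and replicate 2 as an open square. The axis starts at 75%, the complex II sums of the 4 disrupted libraries lie below both EV libraries, and the 13 mitochondrial mRNAs lie at 80.4 and 83.8% in sgZNF507.

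Complex II was the exception in the sums. Its 4 genes summed to 441.7 and 450.8 CPM in EV, 428.7 and 419.1 CPM in sgZNF146, and 404.5 and 414.1 CPM in sgZNF507. Both disrupted groups lay below EV in both libraries, at 95% of the EV mean in sgZNF146 and 91.7% in sgZNF507. An order of this kind in 2 libraries against 2 cannot pass 0.05 in an exact two-sided permutation test, whose smallest p is 0.333, and no gene of the complex passed the test on its own. The complex was noticed among 5 after the values were seen.

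SDHA, which oxidises succinate and lies on chromosome 5 (GRCh37, chr5:218418-257197, plus strand, 15 exons), was at 273 and 290 CPM in EV, 275 and 271 CPM in sgZNF146, and 250 and 259 CPM in sgZNF507. Both sgZNF507 libraries were below the other 4. The log2 fold change against EV was -0.14 ± 0.06 in sgZNF507 (edgeR unadjusted p = 0.0355, adjusted p = 1), and -0.10 ± 0.06 against sgZNF146 (adjusted p = 1). SDHA has pseudogene copies that took reads equal to 17.4% of its own, and 24.5% of the 50-base windows of its transcripts occurred in transcripts of other genes that do not overlap it. The pseudogenes summed to 46.6 and 49.8 CPM in EV, 49.1 and 47.8 CPM in sgZNF146 and 44.4 and 44.7 CPM in sgZNF507. SDHA with its pseudogenes was at 90.8% of the EV mean in sgZNF507 and 97.5% in sgZNF146, so that adding the copies left the values close to those of SDHA alone. Of the 12 tested neighbors of SDHA, 10 had a lower mean in sgZNF507 than in EV and 2 a higher one. Their median log2 fold change was -0.03, and their part in the SDHA value was not tested.

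SDHB, the iron-sulfur subunit on chromosome 1 (chr1:17345159-17380527, minus strand), was at 89.6 and 89.1 CPM in EV, 83.7 and 78.7 CPM in sgZNF146, and 84.8 and 82.9 CPM in sgZNF507. No 50-base window of SDHB occurred in a transcript of another gene. SDHC, an anchor that binds heme with SDHD (chr1:161284171-161332996, plus strand), was at 60.5 and 57.8 CPM in EV, 52.6 and 54.8 CPM in sgZNF146, and 54.6 and 54.0 CPM in sgZNF507. In both genes the 4 disrupted libraries lay below the 2 EV libraries. In sgZNF146 against EV the log2 fold changes were -0.14 ± 0.07 for SDHB (unadjusted p = 0.0546) and -0.14 ± 0.07 for SDHC (unadjusted p = 0.0774), and both had an adjusted p of 1 in edgeR. SDHD on chromosome 11 was at 18.3 and 14.3 CPM in EV, 17.3 and 14.4 CPM in sgZNF146, and 14.9 and 17.9 CPM in sgZNF507. Its groups overlapped, and its replicates differed more than its groups.

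**Figure D4:**
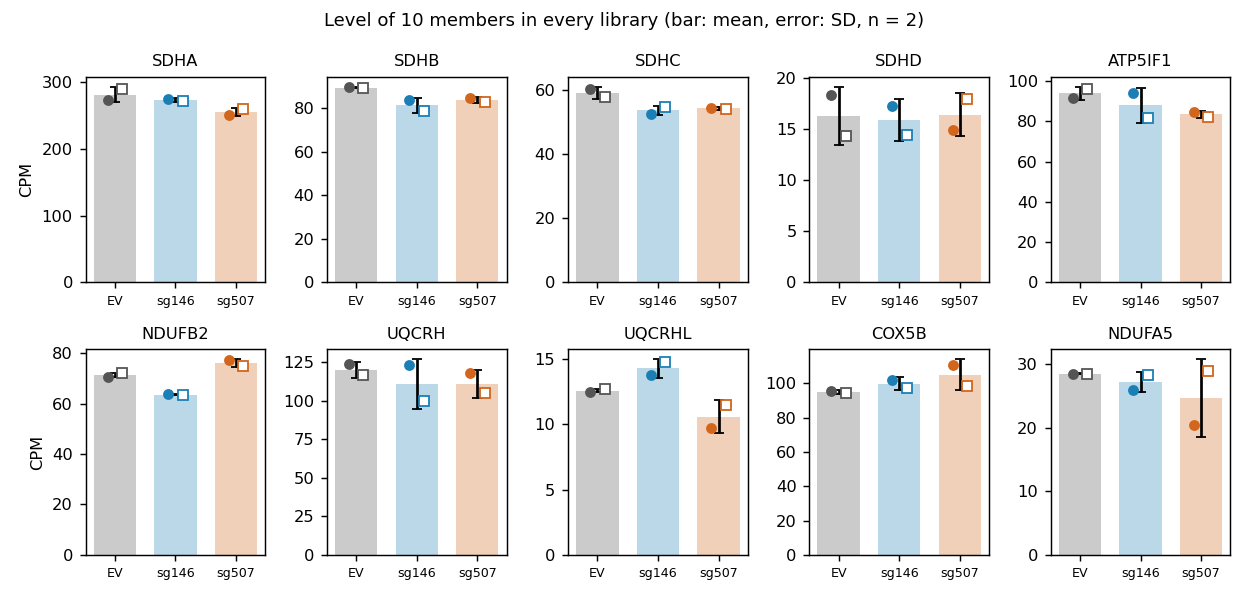
Levels of 10 genes in CPM are shown for EV, sgZNF146 (sg146) and sgZNF507 (sg507), with replicate 1 as a filled circle, replicate 2 as an open square, bars for the mean and error bars for the SD (n = 2). SDHB and SDHC lie lower in all 4 disrupted libraries, NDUFB2 is lowest in sgZNF146, and the NDUFA5 replicates of sgZNF507 lie at 20.4 and 29.0 CPM.

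In complex I, 0 of 38 tested genes passed in any comparison without the replicate block. The largest difference by p was that of NDUFB2, a small accessory subunit of the membrane arm on chromosome 7 (chr7:140390577-140422590, plus strand, 4 exons). It was at 70.7 and 72.0 CPM in EV, 63.6 and 63.4 CPM in sgZNF146, and 77.1 and 74.9 CPM in sgZNF507. The 3 groups did not overlap, with sgZNF146 lowest and sgZNF507 highest. The log2 fold change was -0.17 ± 0.07 in sgZNF146 against EV (edgeR unadjusted p = 0.0255, adjusted p = 1) and 0.26 ± 0.07 in sgZNF507 against sgZNF146 (unadjusted p = 0.00196, adjusted p = 0.474). With the replicate block, the latter difference had an edgeR adjusted p of 0.00969.

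Neighboring genes of NDUFB2 had lower means in sgZNF146 as well. Of the 10 tested protein-coding genes on either side, a span of 2.78 Mb, 19 of 20 had a lower mean in sgZNF146 than in EV. Their median log2 fold change was -0.19. MRPS33, a mitochondrial ribosomal protein gene, was at -0.26, SSBP1, the mitochondrial single-stranded DNA-binding protein, at -0.20 and ADCK2 at -0.12. In sgZNF507 against EV, 10 of the 20 were higher and 10 lower, with a median of 0.00. In sgZNF507 against sgZNF146, 19 were higher and the median was 0.18. None of the 20 passed the adjusted threshold in edgeR, and the part of the neighborhood in the NDUFB2 values was not tested. NDUFB2 exons also overlap those of ADCK2 on the same strand by 64 bases (1.44% of its exon bases), those of a protein-coding gene on the opposite strand by 1239 bases (27.9%) and those of NDUFB2-AS1, also on the opposite strand, by 321 bases (7.22%).

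**Figure D5:**
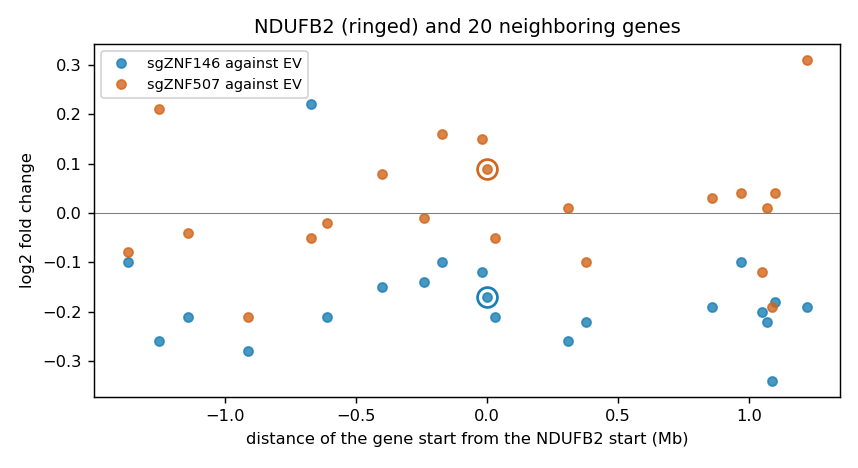
The log2 fold change of NDUFB2 (ringed) and of the 10 nearest tested protein-coding genes on either side is plotted for sgZNF146 (blue) and sgZNF507 (orange) against EV. The horizontal axis is the distance of their starts from that of NDUFB2 in Mb. In sgZNF146, 19 of 20 neighbors lie below 0, and in sgZNF507 they are split with 10 on each side.

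Other complex I genes with small unadjusted p-values went in both directions. NDUFA2 was at 61.0 and 57.4 CPM in EV and 68.4 and 63.6 CPM in sgZNF507 (log2 fold change of 0.16 ± 0.07), and NDUFS6, a zinc-binding subunit needed late in assembly, was at 85.6 and 95.6 CPM in EV and 83.9 and 79.6 CPM in sgZNF507 (-0.15 ± 0.08). NDUFA13, also known as GRIM-19, was at 40.7 and 44.6 CPM in EV and 49.1 and 46.3 CPM in sgZNF146 (0.16 ± 0.08), and NDUFB6 was at 23.7 and 24.6 CPM in EV and 29.0 and 25.2 CPM in sgZNF146 (0.17 ± 0.10). The NDUFB6 value was 0.06 without sgZNF146 replicate 1 and 0.27 without replicate 2. All 4 had an adjusted p of 1 in edgeR. Of the 20 tested neighbors of NDUFS6, 18 had a lower mean in sgZNF507 than in EV and 2 a higher one. Their median log2 fold change was -0.08, and their part in the NDUFS6 value was not tested. Of the core subunits, none of NDUFS1, NDUFS3, NDUFS7, NDUFS8 and NDUFV1 had a log2 fold change beyond 0.04 in either direction against EV.

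NDUFA5, an accessory subunit of the peripheral arm on chromosome 7, showed how far 2 replicates could part. It had 840 counts in 1 sgZNF507 library and 470 in the other, or 29.0 and 20.4 CPM, beside 28.5 and 28.4 CPM in EV. Its replicate difference of -0.51 on the log2 scale was the largest downward one of the sgZNF507 group. Over the tested genes without the lowest, NDUFA4L2 and ATP5MGL, which left 80, the median absolute replicate difference was 0.06 in EV, 0.06 in sgZNF146 and 0.08 in sgZNF507, beside 0.08, 0.08 and 0.10 for protein-coding genes over 10 CPM.

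In complex III, UQCRHL stood apart from its source gene UQCRH. UQCRH has 4 exons (chr1:46769370-46782448, plus strand), and UQCRHL is a single-exon gene elsewhere on chromosome 1 (chr1:16133664-16135843, minus strand). UQCRHL was at 12.5 and 12.7 CPM in EV, 13.8 and 14.8 CPM in sgZNF146, and 9.72 and 11.5 CPM in sgZNF507. The groups did not overlap, with sgZNF146 above and sgZNF507 below EV. The difference on the log2 scale was -0.42 ± 0.12 in sgZNF507 against sgZNF146 (edgeR unadjusted p = 0.00437, adjusted p = 0.691), and against EV it was -0.24 ± 0.12 in sgZNF507 and 0.19 ± 0.12 in sgZNF146, both with an adjusted p of 1. With the replicate block, the difference between the disrupted groups had an edgeR adjusted p of 0.0313. Without sgZNF507 replicate 1 the value against EV in sgZNF507 was -0.12, and without replicate 2 it was -0.36.

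UQCRH itself was at 124 and 117 CPM in EV, 123 and 100 CPM in sgZNF146, and 118 and 105 CPM in sgZNF507, and its groups overlapped. UQCRHL took 9.13 and 9.77% of the reads of both genes in EV, 10.1 and 12.9% in sgZNF146, and 7.63 and 9.92% in sgZNF507, so that this share did overlap between EV and sgZNF507. The transcripts of both genes have 163 windows of 50 bases in common, which are 11.4% of the windows of UQCRH and 7.65% of those of UQCRHL. Reads within them could not be assigned to 1 gene by sequence alone, and how the authors' counting treated such reads is not given in the sources used here. UQCRQ, a small subunit near the ubiquinone site, was at 100 and 95.5 CPM in EV and 110 and 103 CPM in sgZNF507 (0.12 ± 0.07, edgeR adjusted p = 1). CYC1, UQCRC1 and UQCRFS1 were within 0.03 of 0 on the log2 scale in both comparisons with EV.

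In complex IV, COX5B was at 95.6 and 94.1 CPM in EV, 102 and 97.2 CPM in sgZNF146, and 111 and 98.4 CPM in sgZNF507. Both disrupted groups lay above EV, and the log2 fold change in sgZNF507 was 0.14 ± 0.07 (edgeR unadjusted p = 0.0705, adjusted p = 1). It was 0.05 without sgZNF507 replicate 1 and 0.24 without replicate 2. COX6A1 had the same order, with 71.0 and 68.8 CPM in EV, 75.8 and 73.7 CPM in sgZNF146, and 73.0 and 78.6 CPM in sgZNF507, and pseudogenes of COX6A1 took reads equal to 7.01% of its own. COX8A was at 103 and 107 CPM in EV, 102 and 105 CPM in sgZNF146, and 118 and 108 CPM in sgZNF507. COX5A was at 123 and 126 CPM in EV and 122 and 118 CPM in sgZNF507, with a log2 fold change of -0.05. The nuclear genes of the complex thus had no common direction, with 5 higher and 6 lower in each comparison with EV.

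In ATP synthase, 14 of 19 genes had a lower mean in sgZNF507 than in EV and 14 of 19 in sgZNF146, both against the same EV libraries. Over all 22010 genes tested, 11236 and 11112 were lower. The medians of the complex were only -0.018 and -0.017, and both changed sign when 1 library was left out. ATP5IF1, the inhibitor that blocks ATP hydrolysis by the enzyme when the proton gradient is lost (chr1:28562620-28573417, plus strand), was at 91.6 and 96.2 CPM in EV, 94.1 and 81.8 CPM in sgZNF146, and 84.8 and 82.3 CPM in sgZNF507. Both sgZNF507 libraries lay below EV, and 1 sgZNF146 library lay within the EV values and the other below them. The log2 fold change was -0.17 ± 0.08 in sgZNF507 (edgeR unadjusted p = 0.0435, adjusted p = 1). ATP5PF, coupling factor 6 of the peripheral stalk, was at 56.4 and 57.4 CPM in EV, 54.7 and 57.0 CPM in sgZNF146, and 49.7 and 52.5 CPM in sgZNF507, with a log2 fold change of -0.15 ± 0.07 in sgZNF507 (adjusted p = 1). Its exons overlap those of GABPA on the opposite strand over 34.4% of their length. The catalytic subunit ATP5F1B was at 601 and 582 CPM in EV, 596 and 574 CPM in sgZNF146, and 617 and 582 CPM in sgZNF507, and its groups overlapped. ATP5MC1 was at 89.3 and 86.1 CPM in EV and 81.0 and 82 CPM in sgZNF146, which left the groups apart at a log2 fold change of -0.11 ± 0.07 (adjusted p = 1).

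The mitochondrial partners of these subunits had other values. The 13 mitochondrial mRNAs, all of which encode subunits of complexes I, III, IV and V, summed to 26100 and 28360 CPM in EV, 27010 and 25220 CPM in sgZNF146, and 21890 and 22810 CPM in sgZNF507. The sgZNF507 libraries lay below all others, at 82.1% of the EV mean. The nuclear sums of the same complexes in sgZNF507 were at 98.8 to 101% of EV. By complex, the mitochondrial mRNAs in sgZNF507 were at 79.8% of EV for the 7 MT-ND genes, 82.9% for MT-CYB, 85.6% for the 3 MT-CO genes and 80.8% for the 2 MT-ATP genes. All 13 had a lower mean in sgZNF507 and an unadjusted p under 0.05, with a median log2 fold change of -0.31. None passed the adjusted threshold in edgeR, the smallest adjusted p being 0.0796 for MT-ND4L, and the 13 mRNAs are cut from shared precursor transcripts.

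Genes that help to assemble the complexes gave no calls. Of 56 listed assembly factors, 55 were tested and 0 passed the threshold in edgeR in any comparison. Their medians were -0.01 in sgZNF507 against EV, 0.01 in sgZNF146 against EV and -0.01 between the disrupted groups, and at an unadjusted p under 0.05 there were 0, 1 and 0. The 1 gene was FMC1, an assembly factor of ATP synthase, at 9 and 11.8 CPM in EV and 8.79 and 7.83 CPM in sgZNF146 (log2 fold change of -0.33 ± 0.15, adjusted p = 1). FMC1 lies on chromosome 7 (chr7:139024203-139031074, plus strand), at the outer edge of the NDUFB2 neighborhood described above. The part of that neighborhood in the FMC1 value was not tested. The chain genes that the symbol rule does not reach gave 3 tested genes and 0 calls. COX4I1, the ubiquitous form of subunit 4, was at 203 and 196 CPM in EV, 209 and 200 CPM in sgZNF146, and 210 and 198 CPM in sgZNF507, and COX4I2, the lung form, had 0 counts in every library.

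Of 12 listed transcriptional regulators of the chain, 0 passed the threshold in edgeR. NRF1 and GABPA had log2 fold changes of 0.02 and -0.02 in sgZNF507 against EV. YY1 was at 207 and 197 CPM in EV, 219 and 185 CPM in sgZNF146, and 188 and 162 CPM in sgZNF507. Both sgZNF507 libraries were below EV, with a log2 fold change of -0.21 ± 0.09 (edgeR unadjusted p = 0.0337, adjusted p = 1), and the sgZNF146 libraries lay on either side of the EV libraries.

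Promoter sequences are shown because the letters that NRF1, GABP and YY1 recognise occurred in a larger share of the chain genes than of all genes, although each in a minority of them. RefSeq windows of 300 bases around the annotated start (build GRCh38.p14) were matched for 69 of the 88 genes and searched on both strands. The NRF1 letters GCGCATGCG occurred in 10 of the 69 windows (14.5%), against 2.10% of 27305 promoters of all genes and 2.79% of those of protein-coding genes. The ETS letters CCGGAAG, which GABP recognises, occurred in 19 (27.5%), against 10.7% of all promoters and 14.5% of those of protein-coding genes. The YY1 letters AAGATGGCG occurred in 8 (11.6%), against 1.85% and 2.83%. The SP/KLF letters GGGGCGGGG (14.5% against 16.0% of all promoters) and the CCAAT box CCAAT (36.2% against 35.7%) were at about the background share. A match is a run of letters and not a measured binding site, and the NRF1 motif nearly reads the same on both strands. The ETS and YY1 motifs can share letters where the end of the first is the start of the second.

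The NRF1 letters lay upstream of SDHD, NDUFS6, NDUFS7, COX6A1, ATP5F1C and ATP5PF, genes of complexes I, II, IV and V, which are 6 of the 10 genes with a match. In the windows of 50 bases (GRCh38.p14) the capitals mark the motif on the strand of the gene or its reverse complement, and each line reads 5′ to 3′ on the strand of the gene.
SDHD (complex II, chr11:112086743-112086792, plus strand): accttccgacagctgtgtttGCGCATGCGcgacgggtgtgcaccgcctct
NDUFS6 (complex I, chr5:1801341-1801390, plus strand): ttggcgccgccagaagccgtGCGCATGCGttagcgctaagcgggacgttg
NDUFS7 (complex I, chr19:1383813-1383862, plus strand): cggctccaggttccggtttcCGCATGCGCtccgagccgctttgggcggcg
COX6A1 (complex IV, chr12:120437874-120437923, plus strand): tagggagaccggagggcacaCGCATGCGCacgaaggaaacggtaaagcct
ATP5F1C (complex V, chr10:7788127-7788176, plus strand): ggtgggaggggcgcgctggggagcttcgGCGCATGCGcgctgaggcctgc
ATP5PF (complex V, chr21:25735145-25735194, minus strand): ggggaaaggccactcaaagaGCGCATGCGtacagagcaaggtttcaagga
The motif ended 13 bases before the annotated start in ATP5F1C, 37 in NDUFS6, 65 in NDUFS7, 101 in SDHD, 111 in ATP5PF and 210 in COX6A1.

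The ETS letters lay upstream of SDHB, UQCRH, UQCRQ and COX5B, which are shown because their values are described above, and the YY1 letters lay upstream of ATP5PF. Capitals again mark the motif, and positions are on GRCh38.p14.
SDHB, ETS (complex II, chr1:17054131-17054180, minus strand): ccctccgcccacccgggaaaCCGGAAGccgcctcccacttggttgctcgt
UQCRH, ETS (complex III, chr1:46303632-46303681, plus strand): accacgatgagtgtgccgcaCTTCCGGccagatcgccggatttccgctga
UQCRQ, ETS (complex III, chr5:132866568-132866617, plus strand): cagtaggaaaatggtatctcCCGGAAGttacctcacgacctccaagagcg
COX5B, ETS (complex IV, chr2:97646005-97646054, plus strand): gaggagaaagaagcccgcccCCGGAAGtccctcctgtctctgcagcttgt
ATP5PF, YY1 (complex V, chr21:25735082-25735131, minus strand): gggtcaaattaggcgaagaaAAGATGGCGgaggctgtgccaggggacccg
Genes with the same letters did not share a direction. In sgZNF507 against EV, COX5B and UQCRQ had positive log2 fold changes of 0.14 and 0.12, whereas SDHB was at -0.09 and UQCRH at -0.12. Binding of ZNF146 or ZNF507 at these promoters was not analysed here.

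Many of the 88 genes share sequence with other loci. A total of 184 pseudogenes were named after 48 of the genes, 122 of them had 0 counts in all libraries, and the pseudogenes of 7 genes took reads equal to more than 1% of those of their source gene. Over the 88 genes, the median share of 50-base windows that recur in transcripts of other, non-overlapping genes was 1.23%, 24 genes had no such window, and 9 had over 10%. Exons of 42 of the genes overlap exons of another gene, 26 on the same strand and 28 on the opposite strand, with some in both classes. The library kit keeps the strand, but whether the counting used it is not given in the sources used here. Reads in overlaps on the same strand cannot be assigned to 1 gene by strand, and how they were counted is not given either. Values of genes that overlap on either strand are uncertain to that extent.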

How the data were processed

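RNA was isolated in duplicate from HEK293 cells of 3 groups, which were taken from the labels. The authors clipped the reads, removed ribosomal RNA reads with Bowtie, mapped paired-end reads of 50 bases to hg19 (GRCh37) with TopHat2 and counted them by gene using featureCounts. The table deposited by the authors holds these raw counts, neither normalized nor pooled. Removal of ribosomal reads before counting can differ between libraries and changes the total that each value is relative to. Reads were not deduplicated by molecular tags. Gene symbols, classes and coordinates came from GENCODE on GRCh37, which matched 96.1% of gene identifiers.

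Counts were tested in edgeR 4.0.16 (R 4.3.3) with filterByExpr on the 3 groups, TMM, and the quasi-likelihood test over all 6 libraries and 22010 genes, with Benjamini-Hochberg adjustment over all of them and a threshold of 0.05. Standard errors and 95% intervals of log2 fold changes were derived from the F statistic and are approximate. CPM divide the counts by the library size after TMM scaling, and SDs are over 2 libraries. DESeq2 1.42.0, other normalizations and filters, fits restricted to 4 libraries, a replicate block and leaving out each library were alternatives, and DESeq2 with the block was added after the data were seen. Deviations of same-numbered libraries from their group means correlated over genes with r of 0.138, 0.176 and 0.145 in the 3 pairs of groups. The numbers come from the sample titles, which do not say what they mark. The steps were tested on simulated data. Shared windows are exact matches of 50 bases on either strand between GENCODE transcripts. Figures were drawn with matplotlib 3.10.9.

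The genes, the lists and the tests were chosen with earlier results of these data known. Genes named were ZNF146 and ZNF507, the 4 chain genes with the smallest unadjusted p in each direction of a comparison, core subunits, isoform sets, the genes not tested, the highest and lowest level per kb in each complex and any gene past the threshold with or without the replicate block. NDUFA5, MT-ND4L, FMC1, YY1, NRF1, GABPA, COX4I1, COX4I2 and the genes whose promoters are printed were chosen after their values were seen. So were the neighbors of NDUFB2, NDUFS6 and SDHA. Some genes of these lists are not reported here.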

Additional observations from a re-analysis of the deposited data

Results flagged for a closer look

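In NDUFB2, UQCRHL and NDUFS5, both libraries of one disrupted group lay above both EV libraries and both libraries of the other disrupted group lay below them. The direct comparison of sgZNF507 with sgZNF146 gave log2 fold changes of 0.26 for NDUFB2 (edgeR adjusted p = 0.474), -0.42 for UQCRHL (adjusted p = 0.691) and 0.10 for NDUFS5 (adjusted p = 1), so that none of the differences passed the test without the replicate block. With the replicate block, NDUFB2 and UQCRHL passed (edgeR adjusted p = 0.00969 and 0.0313). NDUFS5, an accessory subunit of complex I, was at 109 and 107 CPM in EV, 106 and 106 CPM in sgZNF146, and 119 and 109 CPM in sgZNF507, and the lower sgZNF507 library exceeded the higher EV library by less than 1 CPM.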

How the results depend on the processing

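The count of chain genes past the threshold was 0 in all 3 comparisons under the other normalizations, filters, sets of libraries and DESeq2, and without any 1 library. The exception was the replicate block, which gave 2 in sgZNF507 against sgZNF146, NDUFB2 (adjusted p = 0.00969) and UQCRHL (adjusted p = 0.0313). Over all genes tested the block gave 121 calls in sgZNF507 against EV, 33 in sgZNF146 against EV and 196 in sgZNF507 against sgZNF146, where the fit without it gave 40, 0 and 38. DESeq2 with the block called 0 chain genes, and 63, 0 and 75 of all 36846 genes in the same order of comparisons. The block changed no other call of the chain genes. Without 1 library, the median log2 fold change of the tested chain genes ran from -0.041 to 0.024 in sgZNF507 against EV, from -0.026 to 0.008 in sgZNF146 against EV and from -0.032 to 0.030 between the disrupted groups, so that its sign depended on the libraries used. The medians of complexes I, III, IV and V against EV also changed sign without 1 library, and that of complex II did not. Of 24 log2 fold changes of the named chain genes, 12 moved by over 1.5 times when 1 library was left out, and none changed sign. The 6 genes not tested had at most 5 counts in a library, where a difference was not detectable.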
